A study of Homo sapiens with 8 samples.

Results

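The 4 rows described here, of 60666 Ensembl gene IDs in the count table, are a pair of rows whose reads fell almost only in the pulldown with 1 microRNA and the genes that span the loci of those microRNAs. ENSG00000253008 and ENSG00000221464 were chosen because of where their reads fell, so their counts are given as a description. KLF7 (ENSG00000118263) and ARL10 (ENSG00000175414) were chosen by position, as the hosts of the miR-2355 and the miR-1271 locus, so their counts were free to differ or not. The libraries came from 786-0 cells, an established line from a human clear cell renal carcinoma with the labelled cell type epithelial. Biotinylated duplexes of miR-2355-5p, of miR-1271-5p or of a control microRNA were transfected for 48 h, and the RNA recovered with the biotin was sequenced. There were 2 miR-2355, 3 miR-1271 and 3 control libraries. All groups came from this 1 line, and the control sequence is not given in the sources used here. The deposited table pairs no ID with a gene symbol, and 0 IDs matched the RefSeq gene table used here. The host symbols come with the choice of these rows, the 2 restricted rows are called by their IDs, and the markers of the cell line were not looked up.

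A microRNA is cut from a hairpin in a longer primary transcript, first by Drosha in the nucleus and then by Dicer in the cytoplasm, and 1 strand of the resulting duplex is loaded into an Argonaute protein. It binds target RNAs mainly through its seed, bases 2 to 8 from its 5′ end. Where the hairpin lies inside a protein-coding gene on the same strand, it can be transcribed as part of that gene's precursor RNA. A synthetic duplex enters the cell without a primary transcript. Reads on a microRNA locus could therefore come from transcription of the locus, of which the host gene is a part, or from the duplex that was transfected, and the host genes are set beside the restricted rows to show how far they moved together.

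The 5p arms of both microRNAs are shown because the pulldowns are named for them. The 3p arms are shown as the other arm of each hairpin, and miR-96-5p for its seed. Each seed is in capitals. All are RefSeq's sequences on GRCh38.p14 and were not read from the libraries.
hsa-miR-2355-5p: aUCCCCAGauacaauggacaa
hsa-miR-2355-3p: aUUGUCCUugcuguuuggagau
hsa-miR-1271-5p: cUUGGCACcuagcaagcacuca
hsa-miR-1271-3p: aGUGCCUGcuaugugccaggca
hsa-miR-96-5p: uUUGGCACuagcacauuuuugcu
The last is the 1 other mature human microRNA in the RefSeq table with the seed of miR-1271-5p. No other mature microRNA in that table had the seed of miR-2355-5p (0 others). The arms of miR-2355 are 21 and 22 bases long and both arms of miR-1271 are 22. The hairpin of miR-2355 is shown to give the larger RNA that a locus transcript would carry, with the 5p arm in capitals.
MIR2355 hairpin: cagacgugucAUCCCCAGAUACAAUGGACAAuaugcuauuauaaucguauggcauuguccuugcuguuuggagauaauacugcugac
It is 87 bases long, with the 5p arm at bases 11 to 31 and the 3p arm at bases 54 to 75. No sequence of the transfected duplexes was used here.

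On GRCh38.p14, MIR2355 lies on the minus strand at chr2:207109987-207110073, within the span of KLF7 at chr2:207074137-207173851 on the same strand. It starts 63.8 kb from the 5′ end of a span of 99.7 kb. MIR1271 lies on the plus strand at chr5:176367946-176368031, within the span of ARL10 at chr5:176365487-176415063, also on the same strand. It starts 2.46 kb from the 5′ end of a span of 49.6 kb. Apart from its host, no RefSeq gene covers either microRNA (0 others). The span of ARL10 also overlaps NOP16, HIGD2A and CLTB, all protein-coding, and that of KLF7 overlaps the microRNA gene MIR7845. The annotation table gives gene spans without exons, so whether either hairpin is intronic is not stated here. Without exons and a known strand setting, it is not known whether reads of the overlapping genes were told apart. More genes overlap the span of ARL10 than that of KLF7.

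**Figure D1:**
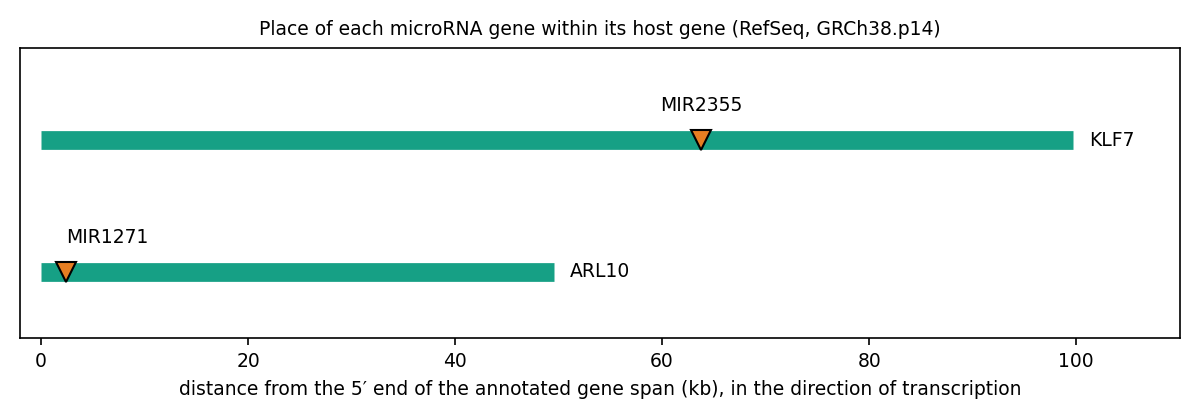
Place of MIR2355 and MIR1271 (triangles) within the annotated spans of KLF7 and ARL10 (bars), in kb from the 5′ end of each span along the direction of transcription. MIR2355 starts 63.8 kb into KLF7 and MIR1271 starts 2.46 kb into ARL10.

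Library totals ran from 4122875 to 22864693 reads, with control replicate 2 the shallowest. Total reads were 18637410 and 14924700 with miR-2355 and from 10358878 to 13119672 with miR-1271. Levels below are CPM, the reads of a row per 1000000 reads of its library, scaled by TMM, a factor per library that takes most genes as unchanged. Unscaled CPM divides by the library total alone. Every level is a share of the RNA recovered. A changed amount in the cells and a changed recovery cannot be told apart, and no measure of RNA before the pulldown was used here.

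ENSG00000253008 was recovered with miR-2355 and hardly elsewhere. Read counts were 1527 and 607 in miR-2355 libraries, 0, 3 and 0 in miR-1271 libraries, and 1, 0 and 1 in controls. Both miR-2355 libraries thus lay far above the other 6. By any margin, they did so in 5.8% of the 37898 rows with a read. Of the row's 2139 reads, 99.8% fell in the miR-2355 libraries, which held 29.0% of all reads. At 81.9 and 40.7 unscaled CPM (exact Clopper-Pearson 95% intervals 77.9 to 86.1 and 37.5 to 44.0), the row had more reads than 90.7% and 82.2% of the rows with a read in the same library. Such intervals hold only for the error of counting, because PCR copies of 1 molecule were not told apart.

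The rest of its reads were near the limit of detection. On a floor of 3 reads, a count of 0 allows up to 0.728 unscaled CPM in control replicate 2. In miR-1271 replicates 1 and 3 it allows up to 0.290 and 0.229. The exact two-sided upper limits are higher, at 0.895, 0.356 and 0.281 in the same order. The 3 reads in miR-1271 replicate 2 come to 0.274 unscaled CPM (exact interval 0.0565 to 0.800). The ratio of pooled TMM-scaled shares between miR-1271 and control was 2.29 with an exact 95% interval of 0.262 to 27.4, so the few reads outside miR-2355 showed no detectable difference at this depth. Between miR-2355 and control the same ratio was 1535 (exact 95% interval 424 to 12685), and between miR-2355 and miR-1271 it was 671 (229 to 3258). Both of these ratios restate how the row was chosen. Their intervals cover the error of counting alone and are no test.

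The level of ENSG00000253008 averaged 60.2 ± 30.1 CPM with miR-2355 (SD, n = 2), 0.0990 ± 0.171 with miR-1271 and 0.0297 ± 0.0258 with the control (SD, n = 3 each). The miR-2355 libraries differed 2.10-fold in it, and their counting intervals did not meet.

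ENSG00000221464 was recovered with miR-1271 alone among these libraries. Read counts were 38, 93 and 63 with miR-1271, 0 and 0 with miR-2355, and 0, 0 and 0 with the control. Its level was 3.93, 9.21 and 4.99 CPM in the miR-1271 libraries, a mean of 6.04 ± 2.79 (SD, n = 3), with miR-1271 replicate 2 at 2.34 times the lowest. In these libraries it had more reads than 54.4%, 63.5% and 58.3% of the rows with a read. On a floor of 3 reads per library, the counts of 0 allow up to 0.161 and 0.201 unscaled CPM with miR-2355. In the control libraries they allow up to 0.131, 0.728 and 0.145, where 0.728 is that of the shallow control replicate 2. The exact two-sided upper limits are higher, at 0.198 and 0.247 with miR-2355 and 0.161, 0.895 and 0.178 with the control. Against a floor of 3 reads over all libraries of a group, the miR-1271 share was higher by at least 98.6-fold than the control share and by at least 68.5-fold than the miR-2355 share. The exact two-sided 95% limits, as used for the other ratios, are lower, at 79.4-fold and 55.2-fold. All of these bounds restate how the row was chosen and are no test.

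The rows next in restriction to the same microRNA were less restricted. Among the 19691 rows with at least 30 reads, ENSG00000253008 had 99.8% of the sum of its 3 group means in miR-2355, and the next row, ENSG00000165832, had 82.6%. That row had 4523 and 7566 reads with miR-2355, but also 351, 243 and 433 with miR-1271 and 916, 203 and 1062 with the control. ENSG00000221464 had 100% in miR-1271, and the next row, ENSG00000138764, had 82.8%, from 1007, 1326 and 1868 reads with miR-1271, 237 and 221 with miR-2355 and 406, 43 and 261 with the control. Both of these rows were counted in all 8 libraries, and neither has a name here. Restriction to 1 group was not limited to the microRNA pulldowns: 1 row each had over 90% in miR-2355 and in miR-1271, and 3 rows had over 90% in the control, while 6, 6 and 68 rows had over 75%.

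The chosen rows can also be described by read counts in place of shares. Of 6769 rows with a read in miR-2355 libraries and at most 5 reads elsewhere, ENSG00000253008 had 2134 reads in the 2 miR-2355 libraries and the next row had 20. Of 6594 such rows for miR-1271, ENSG00000221464 had 194 reads in the 3 miR-1271 libraries and the next row had 27, of which 26 came from 1 library. ENSG00000253008 itself had 5 reads elsewhere, so it lies at the limit of this cut. Both rows were chosen by where their reads fell. These values show only where the chosen rows lie among the others and are no test.

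**Figure D2:**
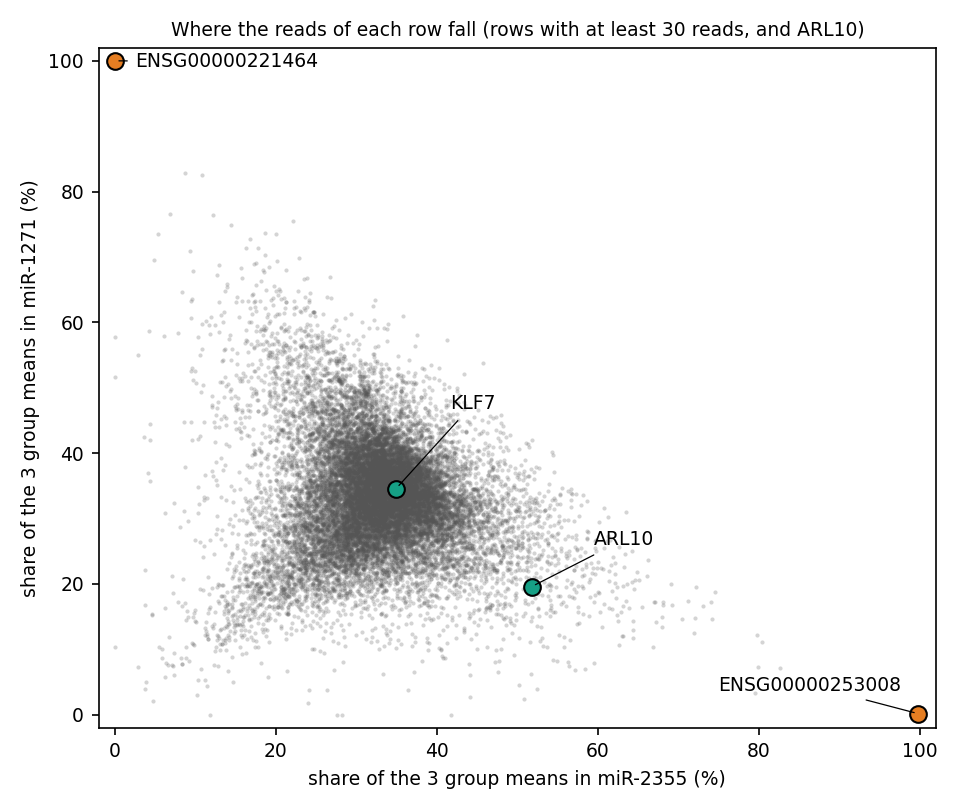
Share of the sum of the 3 group means of TMM-scaled CPM that fell in miR-2355 (x axis, %) and in miR-1271 (y axis, %), 1 grey point for each of the 19691 rows with at least 30 reads. ENSG00000253008 lies at 99.8% on the x axis and ENSG00000221464 at 100% on the y axis, while KLF7 lies at 34.9% and 34.6% and ARL10, which had 25 reads in all, at 51.8% and 19.6%.

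KLF7 codes for a zinc-finger transcription factor of the Krüppel-like family, known from mice for its part in neuron development. It was counted well in every library and stayed nearly level. Its read counts were 808 and 586 in miR-2355 libraries, 386, 429 and 473 in miR-1271 libraries, and 847, 149 and 763 in controls. Its TMM-scaled level was 43.2 and 37.6 CPM in miR-2355 libraries, 39.9, 42.5 and 37.5 CPM in miR-1271 libraries, and 36.0, 34.0 and 35.6 CPM in controls. The miR-2355 and miR-1271 libraries overlapped each other. On this scale both miR-2355 libraries lay above all controls, as in 24.9% of tested rows. All miR-1271 libraries did so too, as in 23.1% of tested rows, but without the scaling they overlapped the controls. The highest level was 1.27 times the lowest over the 8 libraries, and 97.6% of the 17351 tested rows had a wider range (median 2.06-fold). That share is not matched for level. Rows with few reads spread more from counting error, and KLF7 had a higher mean than 70.0% of tested rows.

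No contrast of KLF7 passed the test. In it, edgeR's quasi-likelihood model was fitted to the 17351 rows that passed the filter on low counts, and p-values were adjusted over these rows. With miR-2355 it averaged 40.4 ± 3.94 CPM (SD, n = 2), against 35.2 ± 1.05 CPM with the control (SD, n = 3). The log2 fold change was 0.19 ± 0.13 (SE; edgeR adjusted p = 0.267), with a 95% interval for the fold of 0.951 to 1.38. In this contrast 29.8% of all tested rows passed in either direction. Groups that do not overlap were common too: in 24.9% of tested rows both miR-2355 libraries lay above all controls, as they did for KLF7.

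With miR-1271, whose locus lies outside KLF7, KLF7 averaged 40.0 ± 2.50 CPM (SD, n = 3), against 35.2 ± 1.05 CPM with the control. The log2 fold change was 0.18 ± 0.12 (SE; edgeR adjusted p = 0.235; 95% interval for the fold 0.955 to 1.34), where 40.2% of tested rows passed and 23.1% had all miR-1271 libraries above all controls. This value depended on the scaling. With library totals alone the log2 fold change was 0.03 (edgeR adjusted p = 0.868; adjusted p over all alternatives 0.0660 to 0.868), and the groups overlapped, with 36.1 to 39.1 unscaled CPM with miR-1271 and 36.1 to 37.0 with the control. The contrasts of the 2 microRNAs with the control share the control libraries, so the similar values are not independent of each other.

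Set directly against each other, the pulldowns did not differ detectably in KLF7. The log2 difference between miR-2355 and miR-1271 was 0.02 ± 0.13 (SE; edgeR adjusted p = 0.958), and the 95% interval for the fold was 0.840 to 1.22. In this contrast 6.15% of tested rows passed. The interval shows how large a difference could have gone unseen. A larger absolute log2 difference was measured in 96.3% of tested rows, a share that is not matched for level either.

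Counting error alone gave narrower intervals for KLF7 than the spread between libraries did. The ratio of pooled shares was 1.14 for miR-2355 over control (exact 95% interval 1.06 to 1.22) and 1.12 for miR-1271 over control (1.04 to 1.20). For miR-2355 over miR-1271 it was 1.02 (0.946 to 1.10). For both microRNAs over the control, the interval from counting leaves out 1, and the interval that includes the spread between libraries does not.

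**Figure D3:**
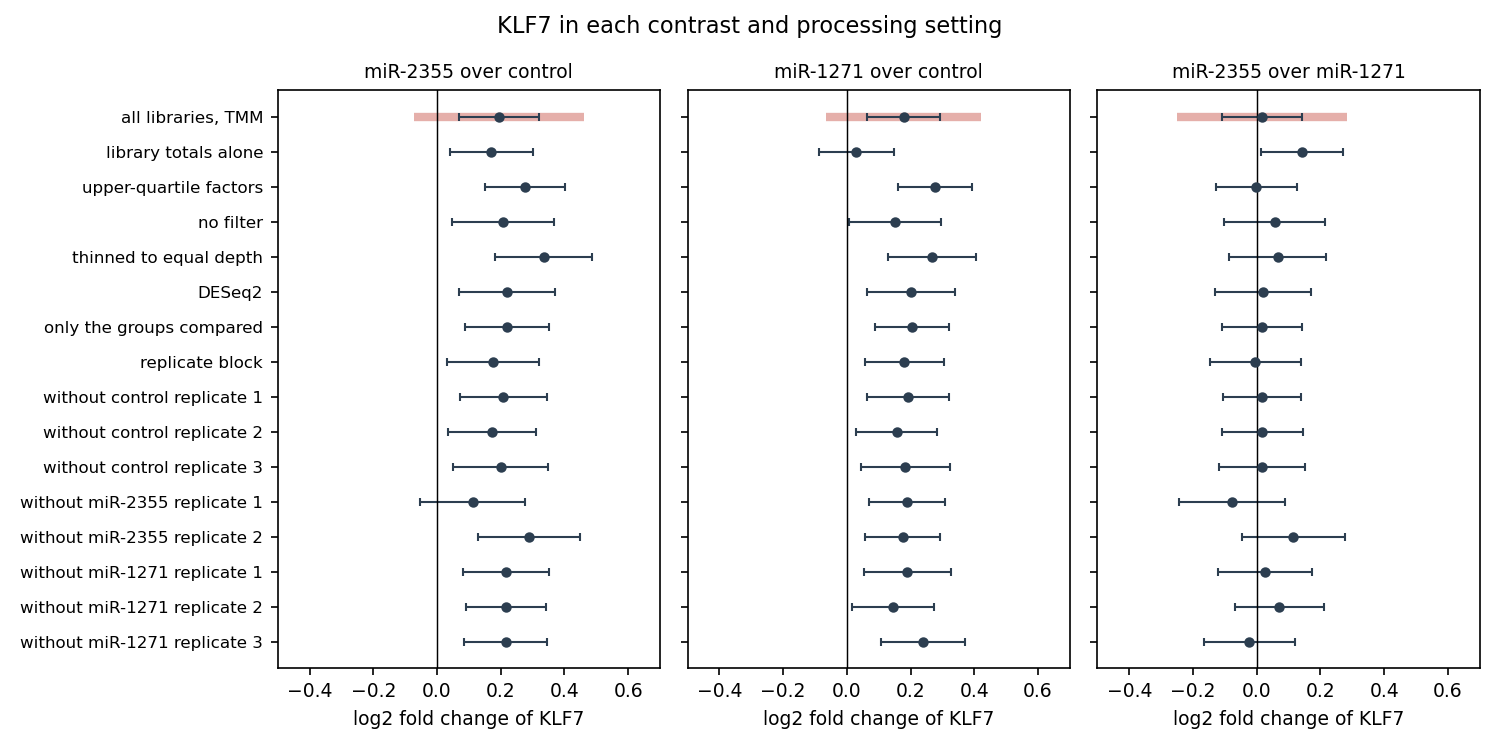
Log2 fold change of KLF7 (x axis) in 3 contrasts, 1 row for each processing setting, with bars of 1 standard error and a pale band for the 95% interval of the fit to all libraries. The fits to all libraries lie at 0.19, 0.18 and 0.02, and all 3 bands include 0.

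Reads of ENSG00000253008 and KLF7 were also compared within each library, where no scaling between libraries enters. For each KLF7 read there were 1.89 and 1.04 reads of ENSG00000253008 in miR-2355 libraries, 0, 0.00699 and 0 in miR-1271 libraries, and 0.00118, 0 and 0.00131 with the control. Pooled, 2134 reads stood beside 1394 KLF7 reads with miR-2355, 3 beside 1288 with miR-1271 and 2 beside 1759 with the control. The ratio is a ratio of reads, not of molecules, because the lengths of both rows are not used here, and it is meant only for comparison between libraries. It moved with ENSG00000253008, since KLF7 varied little. ENSG00000253008 was chosen by these same reads, so the ratio is a description and no test.

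Between the 2 miR-2355 libraries, ENSG00000253008 and KLF7 were both higher in replicate 1, by 2.10-fold and 1.15-fold. With 2 libraries an order has no test, and no correlation is given across the 8 libraries because they fall into separate groups for the restricted row.

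ARL10 codes for a member of the ADP-ribosylation factor-like family of small GTP-binding proteins. It was at the edge of detection in all groups, with 25 reads in the whole table. Its read counts were 1, 3 and 0 in miR-1271 libraries, 6 and 6 in miR-2355 libraries, and 4, 1 and 4 in controls. These come to 0.103, 0.297 and 0 CPM with miR-1271, 0.320 and 0.385 CPM with miR-2355 and 0.170, 0.228 and 0.186 CPM with the control. The miR-1271 libraries spread over the range of the controls and beyond it on both sides, and the miR-2355 libraries lay above the other 6, as they did in 5.8% of the 37898 rows with a read.

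ARL10 did not pass the filter on low counts, so it has no value in the fit of the 17351 rows, and its pooled reads are compared instead. Its share with miR-1271 was 0.678 times that with the control (exact 95% interval 0.152 to 2.43, from 4 against 9 reads). With miR-2355 it was 1.92 times that with the control (0.742 to 5.16, from 12 against 9 reads) and 2.83 times that with miR-1271 (0.858 to 12.05, from 12 against 4 reads). All 3 intervals include 1. Fitted without the filter, the edgeR adjusted p-values were 0.789, 0.637 and 0.621 in the same order. Single libraries decide the values that involve miR-1271. As log2 ratios, -0.56 for miR-1271 over control became -2.01 when miR-1271 replicate 2 was left out and 0.17 when replicate 3 was, and the log2 ratio of miR-2355 over miR-1271 (2.83-fold over all libraries) became 2.97 and 0.79.

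Within the miR-1271 libraries, ENSG00000221464 had 38 reads beside 1 of ARL10, 93 beside 3 and 63 beside 0. Pooled, 194 reads stood beside 4, against 0 beside 12 with miR-2355 and 0 beside 9 with the control. The library with the most reads of ENSG00000221464, replicate 2, was also that with the most ARL10 reads, with 3 reads against 1 and 0, too few to give an order. The interval for ARL10 reaches up to a 2.43-fold rise over the control, from 4 against 9 reads and counting error alone. The exact lower limit of 79.4-fold for ENSG00000221464 restates how that row was chosen, so setting these limits side by side is no test.

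**Figure D4:**
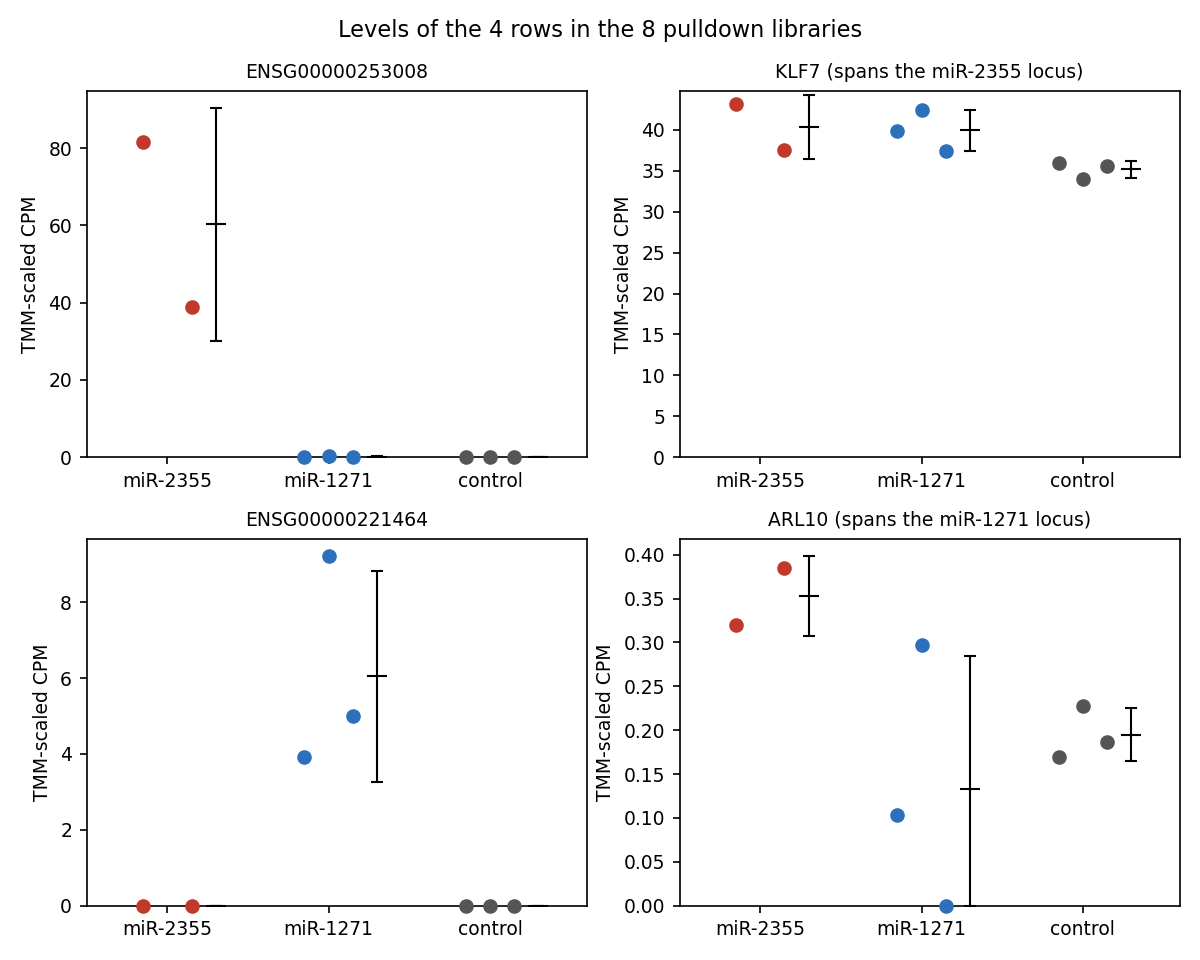
TMM-scaled CPM (y axis, starting at 0, a scale of its own in each panel) of the 4 rows in the 2 miR-2355, 3 miR-1271 and 3 control libraries, 1 point per library, with the group mean and SD as a bar beside the points (bars are cut at 0). ENSG00000253008 is high only with miR-2355 (81.6 and 38.9 CPM) and ENSG00000221464 only with miR-1271 (3.93 to 9.21 CPM), KLF7 stays between 34.0 and 43.2 CPM, and ARL10 stays under 0.385 CPM in all libraries but miR-2355 replicate 2, where it had that value.

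Side by side, the ratio of pooled shares between miR-2355 and control was 1535 for ENSG00000253008 and 1.14 for KLF7. The first of these restates how the row was chosen, so the pair is a description and not a test. For the miR-1271 pair, the comparison rests on 4 ARL10 reads with miR-1271 and 9 with the control. The counts do not show where in its row a read began or ended, so reads from a duplex, from a hairpin and from a longer transcript of the locus were not told apart. A transcript of the locus that is not counted in the exons of the host was not tested either. The deposited table lists ENSG00000253008 directly after KLF7 and ENSG00000221464 directly after ARL10, and a row's place in the table does not give it a name.

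**Figure D5:**
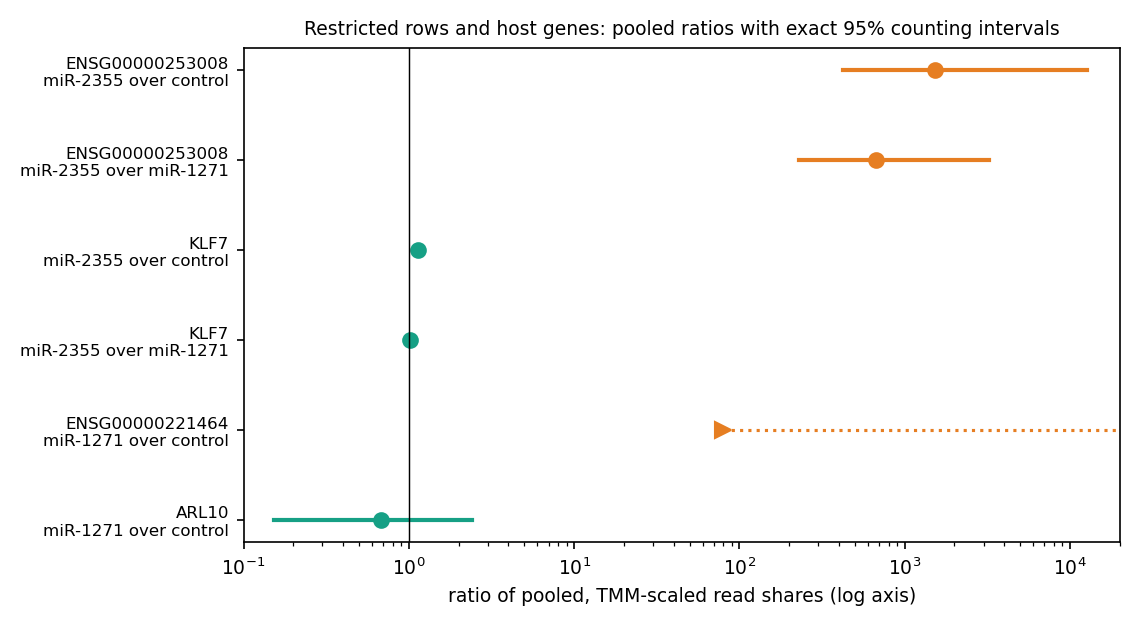
Ratio of pooled TMM-scaled read shares (x axis, log scale) for each restricted row (orange) and host gene (green), with exact 95% intervals for counting error, hidden behind the point for KLF7. The restricted rows lie at 1535 and 671 and, for ENSG00000221464 with 0 control reads, at an exact lower limit of 79.4 (arrowhead), while KLF7 lies at 1.14 and 1.02 and ARL10 at 0.678.

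The rows most alike to each host over the 8 libraries were looked up as a description only. The 3 rows with the highest Pearson correlation with KLF7 in log2 CPM, of 17350 compared, had r of 0.963 to 0.965 over 8 libraries, and all 3 are without a name here. Such values are the top of a search over all rows in libraries that share depth and scaling, and they carry no p. For ARL10 the top 3 values of r were 0.948 to 0.975, from 0 to 6 reads per library, which is too sparse to describe a pattern.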

How the data were processed

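RNA recovered with biotinylated microRNA duplexes from 786-0 cells was sequenced in 8 libraries. The authors deposited a table of raw counts, 1 column per library, without normalization. Per the submitters' processing notes, BWA and featureCounts were used with hg38 and GRCh38. No version, annotation release, strand setting or rule for multi-mapping reads is given in the sources used here. Because BWA aligns without splicing, reads over exon junctions can be lost. Whether this touched the hosts was not tested.

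In edgeR 4.0.16 (R 4.3.3), filterByExpr kept 17351 rows with 99.8% of each library's reads, scaling was by TMM, and the 8 libraries were fitted together by quasi-likelihood with a mean for each group. P-values were two-sided and Benjamini-Hochberg adjusted over all tested rows, with a threshold of 0.05. Standard errors were the absolute log2 fold change over the square root of F, and intervals used the 95% level. Floors for 0 used 3 reads. Pooled ratios have exact conditional binomial intervals. Alternatives were other scaling, no filter, equal depth, DESeq2 1.42.0, the compared groups alone, a replicate block and leaving out each library.

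The members and lists were chosen with earlier results of these data known. The rule for named rows took the 4 members, the 3 rows most alike to each host, and the 3 rows next in restriction to each restricted row, of which the first is printed. Planned counts over neighbouring genes, KLF and ARL paralogs, other microRNA genes and hosts, and cell type markers were not run, because the IDs have no symbols here. ARL10 fell below the filter, so pooled ratios replaced its planned fit. Separate cultures are not stated in the labels, so a p-value here reflects only the spread among these libraries, which may be technical. Libraries of a group differed by more than sampling noise (chi-square per degree of freedom 6.21 to 21.2).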

Additional observations from a re-analysis of the deposited data

How the results depend on the processing

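KLF7 stayed short of the threshold in all 3 contrasts under all 15 alternatives, and its direction over the control held, with log2 fold changes of 0.11 (without miR-2355 replicate 1) to 0.33 (at equal depth) for miR-2355 and 0.03 to 0.28 for miR-1271 (edgeR or DESeq2 adjusted p 0.108 to 0.715 and 0.0660 to 0.868). Its difference between miR-2355 and miR-1271 lay around 0 and changed sign with upper-quartile factors (-0.000837) and with a replicate block (-0.00481), and ran from -0.077 to 0.11 on leaving out 1 library. With the replicate block KLF7 was 0.18 over control for both microRNAs. Same-numbered libraries did not deviate together (r of -0.103 to 0.0185 in 7 pairs, 0 of them over 0.1), so the numbers were not taken to pair them. The log2 ratio of ARL10 between miR-1271 and control ran from -2.01 to 0.17 on leaving out 1 library. All values of ARL10 stayed within the counting interval, and DESeq2 gave it no adjusted p. The level of ENSG00000253008 was 61.3 to 62.1 CPM under other scaling or equal depth, and 38.9 or 81.6 on leaving out a miR-2355 library. That of ENSG00000221464 was 5.65 to 6.23 CPM, and 4.46 to 7.10 on leaving out a library. The background moved more: 2329 rows passed for miR-2355 over control without miR-2355 replicate 1, against 5171 with all libraries. Between the microRNAs 1067 passed with all libraries, 674 at equal depth, 1872 with the compared groups alone, 537 with a replicate block and 224 to 1700 on leaving out 1 library.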
